A study of Mus musculus with 6 samples.

Results

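The replication-dependent histone genes were described in CD8 T cells from mouse tumors and lymph nodes (LN). They were taken as the genes whose symbol starts with *Hist1h*, *Hist2h*, *Hist3h* or *Hist4h* and that had at least 20 UMIs (unique molecular identifiers, each standing for 1 RNA molecule) over 4 libraries. Of 32285 genes, 67 carried such a symbol and 64 reached the limit, 5 of them encoding H1, 17 H2A, 17 H2B, 12 H3 and 13 H4. The prefixes took in none of the variant histones, such as *H2afz* and *H3f3a*, which were described as a list of their own. The least abundant member was *Hist2h3c2*, with 43 UMIs, and the 3 genes left out were *Hist1h1t*, with 4 UMIs, and *Hist1h2ba* and *Hist1h2aa*, with 0. On the mouse assembly GRCm38.p6, 51 members lay on chr13, between 21715711 and 23764412, 10 on chr3, 2 on chr11 and 1 on chr6.

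The cells were sorted as CD45+ CD3+ CD8+ Tomato+ from tumors of B16-OVA, a melanoma line that carries ovalbumin, and from the LN that drain them. CD8-IFNγRKO mice carried CD8-Cre, IFNgR1flox/flox and Rosa26Tomato, and control mice CD8-Cre and Rosa26Tomato with an intact receptor gene. All mice were thus engrafted with B16-OVA and carried the Cre and the Tomato reporter, and the Cre deletes the receptor chain only in cells with an active CD8 promoter. Each of the 4 libraries, which read 5′ ends of transcripts, held pooled cells of 3 mice of a single genotype and tissue, and the labels give day 12 for the harvest. With 1 library per group there was no spread between replicates and no test. Each interval below is an exact 95% interval (Poisson for a level, conditional binomial for a ratio, Clopper-Pearson for a share) that covers counting error only, and a member is called higher or lower where its log2 ratio, with 1 CPM (UMIs of a gene scaled to 1000000 UMIs in all) added to both sides, reached 1 or -1.

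The filters kept 6641 to 8636 cells per library, with a median of 3863 and 4051 UMIs in LN and of 6308 (control) and 9402.5 (CD8-IFNγRKO) in tumors. All 7 CD8 T cell markers were found in each library, at a summed 5358 to 8748 CPM. Among them are *Cd2*, *Cd8a* and *Cd8b1*, of which the filters required a UMI in each cell. *Ifngr1* was at 237 CPM in the CD8-IFNγRKO tumor and 718 in the control tumor, and at 137 and 182 CPM in LN; whether the reads fall in the deleted stretch cannot be told from these counts. Markers of macrophages or dendritic cells summed to 290 and 400 CPM in CD8-IFNγRKO and control tumors and 91.0 and 89.0 in LN. B cell markers were at 7.56 and 18.7 CPM in tumors and 241 and 250 in LN, and those of CD4 T cells (4.91 to 19.7 CPM) and NK cells (0.501 to 5.23 CPM) were low throughout. Melanoma markers stayed under 4 CPM in all libraries, with 3 to 6 of 6 markers found. Pairs of libraries shared 51 to 82 cell barcodes, at most 1.23% of a library. Fewer cells in S phase and less histone RNA per cell cannot be told apart in a level pooled over cells.

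As background, DNA in the nucleus is wound around cores of H2A, H2B, H3 and H4, and H1 binds the DNA between them. The replication-dependent genes lie in clusters, most have no intron, and their RNA is made mainly in S phase, when new DNA is packed. Their RNA ends in a stem-loop bound by SLBP in place of a poly(A) tail, and NPAT drives their transcription. By contrast, most variant histone genes give polyadenylated RNA outside S phase as well, though not all at a steady level over the cycle. A library primed on poly(A) therefore reads members by how much of their RNA carries a tail or is primed otherwise, so levels are those of the RNA captured. CPM of UMIs counts molecules and is not scaled by length; copies with near-identical sequence can lose reads that map to several genes, which was not measured here.

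Promoter windows from RefSeq (GRCm38.p6, 250 bases before to 50 after a start) were held for 59 of the 64 members. CCAAT, on either strand, lay in 48 of the 59 members (81.4%, against 33.8% of 32817 windows of all genes), in 17 of 17 H2A and 15 of 15 H2B members but in 3 of 12 H4 members. TATAAA was found in 27 members (45.8% against 12.4% of all windows). ATTTGCAT, the octamer, was found in 12 members, 6 of H2A and 6 of H2B (20.3% against 1.60%), and AAACACA in 6 members, 4 of them of the 5 H1 genes (10.2% against 6.25%). Some H2A and H2B genes are read outwards from starts 164 to 268 bases apart, so their windows overlap. A match between such starts can be counted for both genes, and the counts of H2A and H2B are not independent. These letters were searched on both strands, do not overlap each other's spelling, and were chosen with values of these data known. The letters G and C made up a median of 44.8% of member windows and 52.4% of all windows, and the part of this in the shares was not tested. A match is a stretch of letters, not a site shown to be bound.

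The windows of 6 members are shown as the 120 bases before the start, 5′ to 3′ on the gene's strand, with the 4 motifs on either strand in capitals. *Hist1h1b* (chr13:21780626-21780745, minus strand) and *Hist1h1c* (chr13:23738687-23738806, plus strand) were the H1 members furthest apart in tumor against LN. *Hist1h2ap* (chr13:21833476-21833595, minus strand) and *Hist1h2af* (chr13:23533755-23533874, plus strand) are H2A members that lay on opposite sides of 0 between shallow and deep tumor cells. *Hist1h2ae* (chr13:23571221-23571340, minus strand) and *Hist1h2bg* (chr13:23571280-23571399, plus strand) are read outwards from a shared stretch.
Hist1h1b: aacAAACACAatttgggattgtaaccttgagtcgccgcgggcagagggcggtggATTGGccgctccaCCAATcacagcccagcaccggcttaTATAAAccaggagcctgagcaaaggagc
Hist1h1c: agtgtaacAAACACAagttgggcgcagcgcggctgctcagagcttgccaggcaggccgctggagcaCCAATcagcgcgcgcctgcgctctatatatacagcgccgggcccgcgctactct
Hist1h2ap: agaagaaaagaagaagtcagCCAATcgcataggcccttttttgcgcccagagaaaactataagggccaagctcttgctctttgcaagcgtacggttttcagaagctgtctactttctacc
Hist1h2af: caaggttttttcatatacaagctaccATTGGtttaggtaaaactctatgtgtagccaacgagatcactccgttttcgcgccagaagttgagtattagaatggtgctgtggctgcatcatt
Hist1h2ae: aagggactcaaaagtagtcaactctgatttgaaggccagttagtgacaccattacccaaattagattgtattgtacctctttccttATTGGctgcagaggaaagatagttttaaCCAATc
Hist1h2bg: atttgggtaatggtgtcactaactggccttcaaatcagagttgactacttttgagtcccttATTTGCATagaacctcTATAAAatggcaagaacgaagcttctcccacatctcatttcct

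Pairs were sought among the 59 members with a promoter window, which gave the strand. Members without one, among them *Hist2h2be* and *Hist1h2bc*, could not enter a pair, so the list may be incomplete. Among the 59, 9 pairs were read outwards from starts at most 500 bases apart. All 9 joined an H2A with an H2B gene, 164 to 268 bases apart. In 5 of the 9 pairs the levels differed by more than 2-fold in the control tumor. The higher member of a pair was there at 1.08 to 309 times the level of the lower, with a median of 9.40. *Hist1h2ag* and *Hist1h2bj* were close, at 50.5 and 54.7 CPM, whereas *Hist1h2ap* was at 1205 CPM and its partner *Hist1h2br* at 3.90. *Hist1h2ae* was at 290 CPM and *Hist1h2bg*, on the other side of the stretch shown above, at 30.8. RefSeq gives the symbol *Hist1h2ap* to more than 1 gene, so its place in a pair is uncertain.

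Histone RNA was higher in tumor than in LN in both genotypes. The 64 members summed to 5364 CPM (5349 to 5378) in the CD8-IFNγRKO tumor, 4053 (4037 to 4069) in the control tumor, 925 (914 to 936) in CD8-IFNγRKO LN and 953 (942 to 964) in control LN. The intervals of both tumors lay far above those of both LN, and those of the 2 tumors did not overlap. Between tumor and LN, 37 of 64 members were at least 2-fold higher in control cells, where 13.4% of the 14128 genes tested were, and 45 of 64 in CD8-IFNγRKO cells, where 14% were. No member was 2-fold lower in either genotype, where 10.4% (control) and 11.3% (CD8-IFNγRKO) of genes tested were. The median log2 ratio of the members was 1.45 and 1.90, against -0.018 and -0.0013 over all genes tested. The cell cycle lists stood higher too: S phase genes, none of them a histone, were at 2312 and 3674 CPM in control and CD8-IFNγRKO tumors against 967 and 928 in LN, and G2/M genes at 4764 and 6463 against 1496 and 1613. Their part in the histone difference was not tested on the pooled level; the levels by cell cycle UMIs are given below.

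**Figure D1:**
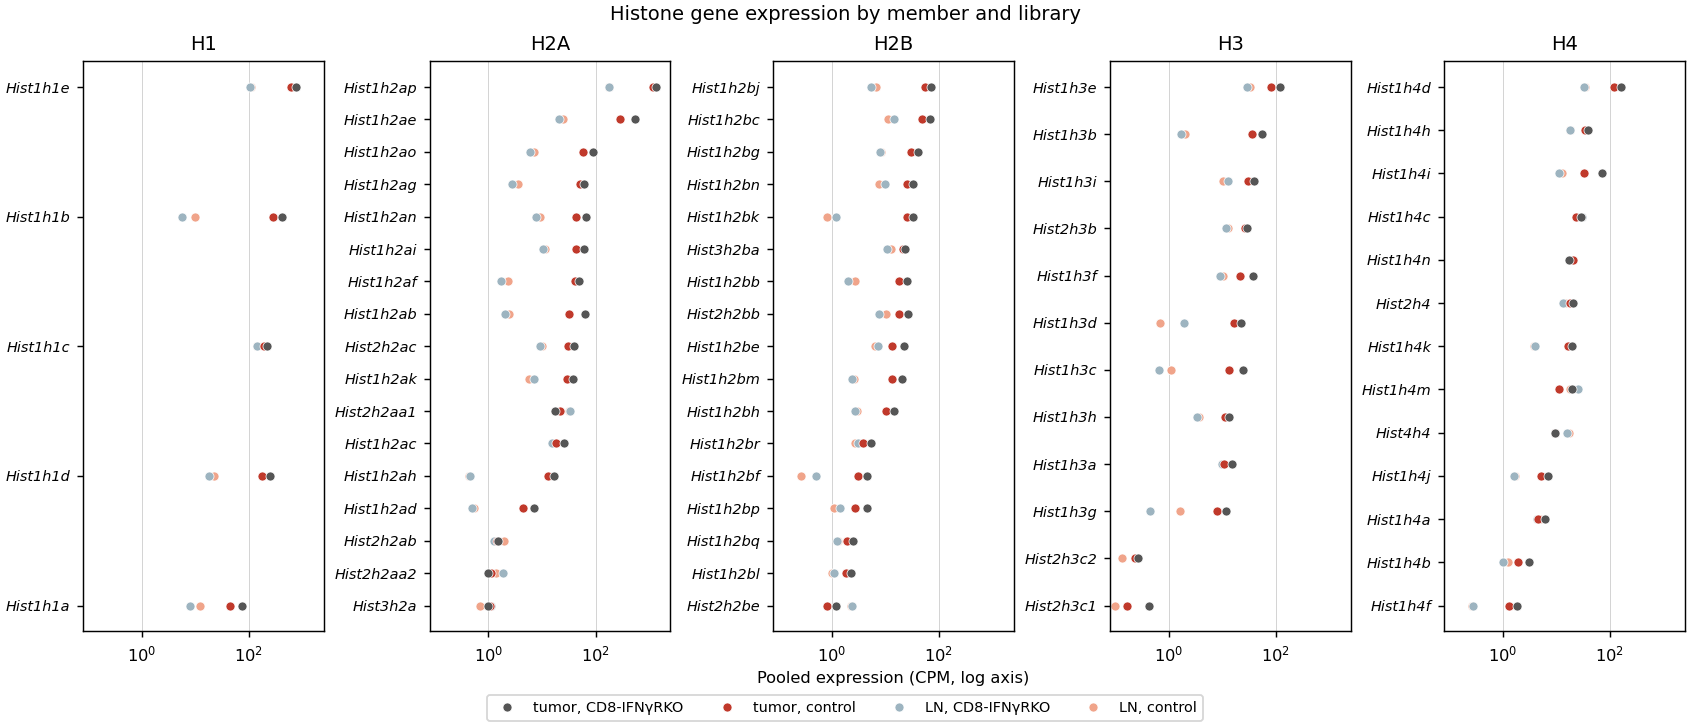
Pooled expression of each histone member (CPM, log axis) in the 4 libraries, with 1 panel per class and members in the order of their control tumor level; *Hist2h3c2*, at 0 UMIs, and *Hist2h3c1*, at 0.0347 CPM, have no point for CD8-IFNγRKO LN. *Hist1h1b* shows the widest gap between tumor and LN, while *Hist1h1c*, *Hist1h4c* and *Hist1h4n* lie close together in all libraries.

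The H1 class held both the largest and one of the smaller differences. *Hist1h1b*, which encodes the linker histone H1.5, was at 290 CPM in the control tumor and 10.1 in control LN (log2 ratio 4.72, 4.57 to 4.87), and at 420 and 5.58 CPM in CD8-IFNγRKO cells (6.0, 5.81 to 6.19). *Hist1h1e*, H1.4, was at 606 and 111 CPM in control and at 774 and 106 in CD8-IFNγRKO cells. It was the most abundant H1 gene of both tumors. *Hist1h1c*, H1.2, differed least: 194 CPM in the control tumor against 144 in LN (0.42, 0.37 to 0.47), and 221 against 146 (0.60, 0.55 to 0.64). The make-up of the class differed accordingly. In LN, *Hist1h1c* gave 48.1% of the H1 UMIs in control and 51.4% in CD8-IFNγRKO cells and *Hist1h1e* 37.0% and 37.4%. In tumors *Hist1h1e* led with 46.3% and 44.5% and *Hist1h1b* followed with 22.2% and 24.2%.

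H2A was the class with the largest summed ratio. It stood at 1886 CPM in the control tumor and 308 in control LN (log2 ratio 2.61, 2.58 to 2.64), and at 2446 and 302 in CD8-IFNγRKO cells (3.01, 2.98 to 3.04). A single gene, *Hist1h2ap*, carried most of it, with 1205 and 1366 CPM in control and CD8-IFNγRKO tumors and 178 and 181 in LN. Its share of H2A UMIs was 63.9% and 55.8% in tumors and 57.8% and 59.8% in LN. Without it, H2A had a log2 ratio of 2.38 in control and 3.14 in CD8-IFNγRKO cells. *Hist1h2ae* followed, at 290 and 543 CPM in tumors and 24.7 and 20.4 in LN. *Hist1h2af* was at 41.3 CPM in the control tumor and 2.31 in LN (3.68, 3.43 to 3.93). *Hist2h2aa1*, on chr3, went the other way, at 21.4 against 31.3 CPM in control (-0.53, -0.65 to -0.41) and 17.2 against 33.7 in CD8-IFNγRKO cells (-0.93, -1.04 to -0.82).

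H2B had summed log2 ratios of 1.84 (1.78 to 1.90) in control and 2.28 (2.22 to 2.34) in CD8-IFNγRKO cells. *Hist1h2bj*, the most abundant H2B member in tumors, was at 54.7 and 71.9 CPM there and at 6.92 and 5.37 in LN. *Hist1h2bk* came next to *Hist1h1b* in control cells among members with at least 100 UMIs, with 25.5 CPM in the tumor and 0.835 in LN (3.85, 3.56 to 4.11). *Hist2h2be*, a gene known to give polyadenylated RNA outside S phase, was lower in tumor, at 0.840 against 2.34 CPM in control (-0.86, -1.15 to -0.55) and 1.20 against 2.39 in CD8-IFNγRKO cells (-0.62, -0.91 to -0.33). The other members known for such RNA were spread out. *Hist1h1c* is given above, *Hist1h2bc* was at 48.9 against 11.4 CPM in control cells (2.01, 1.85 to 2.16), and *Hist3h2a* lay between 0.702 and 1.11 CPM in all libraries.

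H3 and H4 had the smaller ratios. H3 stood at 257 CPM in the control tumor and 85.2 in LN (log2 ratio 1.58, 1.52 to 1.64) and at 369 and 81.0 in CD8-IFNγRKO cells (2.18, 2.12 to 2.24). *Hist1h3e* was its most abundant member, at 82.2 and 122 CPM in tumors and 32.5 and 29.2 in LN, and *Hist1h3b* had 35.6 and 54.6 CPM against 2.04 and 1.70. H4 stood at 304 against 177 CPM (0.78, 0.73 to 0.82) and at 404 against 176 (1.20, 1.15 to 1.24). Of its 13 members, 4 were at least 2-fold higher in control and 7 in CD8-IFNγRKO tumors, where 13.4% and 14% of genes tested were. *Hist1h4d* was the leading gene, at 123 and 159 CPM in tumors and 34.2 and 32.7 in LN. *Hist4h4*, alone on chr6, was lower in tumor, at 9.68 against 17.6 CPM (-0.80, -0.96 to -0.64) and 9.52 against 16.1 (-0.70, -0.85 to -0.55), as was *Hist1h4m*, at 11.1 against 18.2 (-0.67, -0.83 to -0.52) and 19.6 against 25.5 (-0.36, -0.48 to -0.24). H4 gave 18.6% and 19.0% of all histone UMIs in control and CD8-IFNγRKO LN and 7.50% and 7.54% in tumors.

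The share of cells with any histone UMI followed the same order. After each cell was thinned to 500 UMIs, which left out no cell, a histone UMI was found in 65.6% of cells of the CD8-IFNγRKO tumor (64.5 to 66.6) and in 50.3% of the control tumor (49.1 to 51.4), against 32.4% (31.2 to 33.5) and 32.7% (31.5 to 33.8) in LN. Without thinning the shares were 97.4%, 93.5%, 89.3% and 89.1%. Cells with at least 5 histone UMIs of the 500 made up 22.8% of CD8-IFNγRKO and 13.8% of control tumor cells, and 0.238% and 0.316% of LN cells. No cell type in these libraries lacks histone genes, so the level of free RNA could not be read from one.

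Loss of the receptor went with a smaller difference in the tumor. The summed log2 ratio of CD8-IFNγRKO over control was 0.40 (0.40 to 0.41), and the 5 classes lay between 0.38 for H2A and 0.52 for H3. Of 64 members 59 were above 0, as were 7455 of the 14128 genes tested, and the medians were 0.38 and 0.016. The interval excluded 0 for 55 members above and 2 below. The share over all genes was not computed, so this count does not set the members apart. A single member, *Hist1h4i*, reached 2-fold, where 0.835% of genes tested did, at 71.2 CPM in the CD8-IFNγRKO tumor and 33.3 in the control tumor (1.07, 1.00 to 1.15). No member was 2-fold lower, where 1.08% of genes were. *Hist1h2ab* followed, at 63.9 against 32.3 CPM (0.96, 0.89 to 1.04), and *Hist1h2ae*, at 543 against 290 (0.90, 0.88 to 0.93). *Hist1h2ap* differed less, at 1366 against 1205 CPM (0.18, 0.17 to 0.19), and without it the summed ratio was 0.49.

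The lowest ratios in the tumor belonged to *Hist2h2aa1*, *Hist1h4n* and *Hist2h2aa2*. *Hist2h2aa1* was at 17.2 against 21.4 CPM (-0.30, -0.40 to -0.19) and *Hist1h4n* at 17.2 against 21.1 (-0.27, -0.38 to -0.17). Their near namesake *Hist2h2aa2* was at 0.968 and 1.11 CPM (-0.10, -0.34 to 0.14). S phase genes stood 1.59-fold and G2/M genes 1.36-fold higher in the CD8-IFNγRKO tumor, all 43 S phase genes and 53 of 54 G2/M genes having a ratio above 0. Chaperones, which carry histones to DNA, had a summed ratio of 0.45 (15 of 15 above 0) and genes of histone transcription and mRNA end processing one of 0.34 (12 of 13). Genes that these lists or the variant histones may share with the S phase or G2/M list were not taken out. Variant histones were lower as a sum, at -0.029, although 9 of 10 were above 0, with a median of 0.13: *H2afz* (H2A.Z) was at 1232 against 932 CPM and *H3f3b* (H3.3), the most abundant, at 2509 against 3132. The CD8-IFNγRKO tumor library also had the higher median of UMIs per cell.

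**Figure D2:**
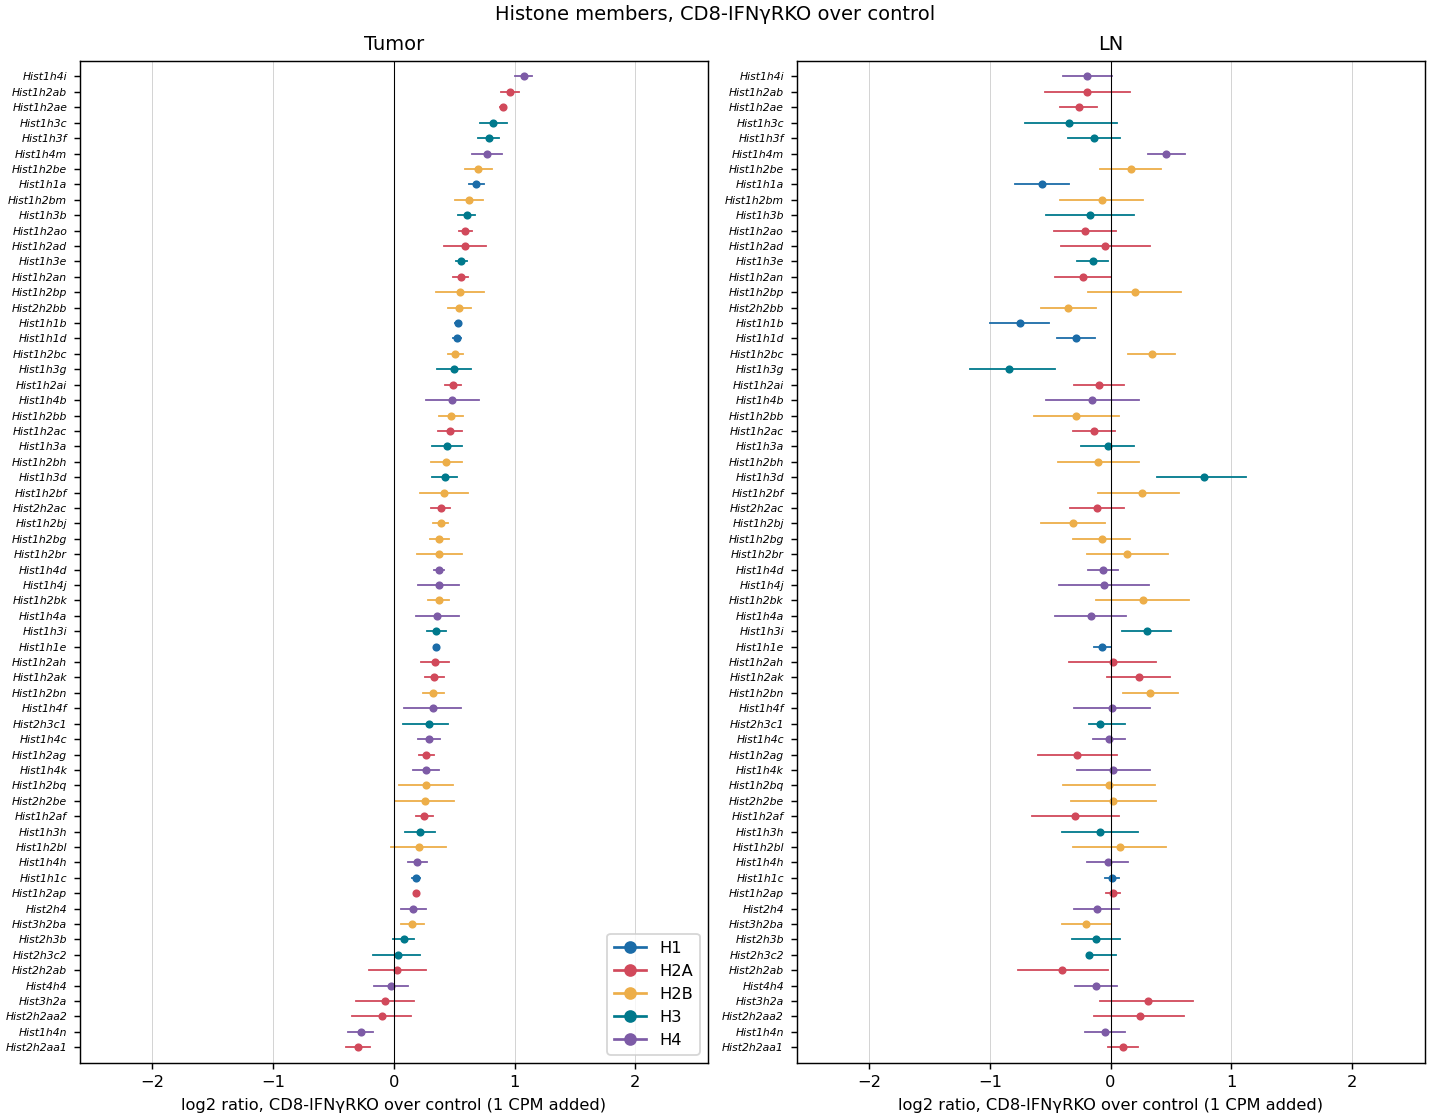
The log2 ratio of CD8-IFNγRKO over control for each member (1 CPM added; points) with its exact 95% interval (lines, counting error only), in tumor and in LN, both in the order of the tumor ratio and coloured by class. In tumor 59 of 64 members lie above 0, where 7455 of 14128 genes tested do, and in LN 21, where 7789 do.

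In LN the libraries of both genotypes were close. The summed ratio was -0.042 (-0.066 to -0.018), no member was 2-fold higher or lower, where 0.0425% and 0.0637% of genes tested were, and the median member was at -0.081 against 0.014 over all genes tested. Above 0 were 21 members and 7789 of the 14128 genes tested. The interval of 49 members held 0. The share over all genes was not computed, so this count does not set the members apart. Among members with at least 100 UMIs, *Hist1h1b* had the lowest ratio, with 161 UMIs (5.58 CPM) in CD8-IFNγRKO and 302 UMIs (10.1 CPM) in control LN (-0.75, -1.0 to -0.51), followed by *Hist1h1a*, at 7.91 against 12.2 CPM (-0.57, -0.79 to -0.35), and *Hist2h2bb*, at 7.80 against 10.2 (-0.35, -0.58 to -0.12). *Hist1h4m*, at 25.5 against 18.2 CPM (0.46, 0.31 to 0.62), *Hist1h2bc*, at 14.7 against 11.4 (0.34, 0.15 to 0.53), and *Hist1h2bn*, at 9.99 against 7.75 (0.33, 0.10 to 0.56), were the highest of these. A few cells with many UMIs carried a part of these sums. The 19 control LN cells with 16000 UMIs or more gave 3229 of 28519 histone UMIs, and the 5 such CD8-IFNγRKO cells 1080 of 26683. With the 8% of cells with the most UMIs left out of each library, the summed ratio turned to 0.043.

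Within each tumor, histone RNA also differed with depth per cell. In the control tumor 805 of 7103 cells and in the CD8-IFNγRKO tumor 667 of 8636 had fewer than 2000 UMIs (shallow cells, against deep cells with 2000 or more), and in them the share of histone RNA was larger. Without the filter on *Cd2*, *Cd8a* and *Cd8b1*, 4011 of 11064 control and 2342 of 11701 CD8-IFNγRKO barcodes lay below 2000 UMIs. The shallow cells are thus only those barcodes with a UMI of each of these genes. The members summed to 7700 CPM (7519 to 7884) in shallow and 3997 (3981 to 4013) in deep control cells, and to 10955 (10756 to 11156) and 5300 (5285 to 5315) in CD8-IFNγRKO cells. In control cells 43 members were at least 2-fold higher in shallow cells, where 3.67% of genes tested were, and in CD8-IFNγRKO cells 49, where 4.52% were. The single member counted as lower in each (2.64% and 2.28% of genes tested) was *Hist3h2a*, with 0 UMIs in shallow cells. Its interval there reached 4.12 CPM in control and 3.48 in CD8-IFNγRKO cells, above its 1.11 and 1.00 CPM in deep cells. The medians over members were 1.28 and 1.48, against 0.028 and 0.057 over all genes tested.

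A background of genes with at least 50 CPM on either side was added after the data had been seen. In control cells 46 of its 3318 genes (1.39%) were 2-fold higher in shallow cells, 29 of them histone members, of 34 members held. In CD8-IFNγRKO cells 91 of 3372 (2.7%) were, and 36 were members, of 42 held. *Hist2h4*, an H4 gene on chr3, had the highest ratio of all such genes in both tumors, at 117 against 17.0 CPM in control (2.72, 2.42 to 3.01) and 181 against 19.0 in CD8-IFNγRKO cells (3.19, 2.97 to 3.40). Of the 20 genes with the highest ratios 16 were members in the control tumor and 15 in the CD8-IFNγRKO tumor. A gene below 50 CPM in deep cells, as *Hist2h4* was, enters this background only through its shallow level. These counts and ranks are thus partly set by the filter. The comparisons are of cells within 1 library each, so that genotype and depth of the library are shared by both sides.

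By class, H1 was at 3238 CPM in shallow and 1280 in deep control cells (log2 ratio 1.34, 1.28 to 1.39) and at 4254 and 1710 in CD8-IFNγRKO cells (1.31, 1.27 to 1.36). All 5 H1 genes were 2-fold higher in both, led by *Hist1h1d*, H1.3, at 565 against 168 CPM (1.75, 1.62 to 1.88) and 794 against 244 (1.70, 1.60 to 1.80). H2B, H3 and H4 stood 2.09-, 2.44- and 2.74-fold higher in shallow control cells and 2.74-, 3.35- and 3.27-fold in CD8-IFNγRKO cells. H2A differed least, with summed ratios of 0.37 (0.31 to 0.43) and 0.35 (0.30 to 0.40). Its leading gene went the other way. *Hist1h2ap* was at 936 CPM in shallow and 1209 in deep control cells (-0.37, -0.47 to -0.27), and at 991 and 1370 in CD8-IFNγRKO cells (-0.47, -0.56 to -0.38). Without it, H2A was at 1486 against 668 CPM (1.15) and 2119 against 1068 (0.99).

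The H2A members split widely. *Hist1h2af* was at 223 against 38.6 CPM in control (2.5, 2.29 to 2.71) and 252 against 47.2 in CD8-IFNγRKO cells (2.39, 2.21 to 2.57), and *Hist1h2ak* at 175 against 27.5 (2.63, 2.39 to 2.87) and 181 against 36.1 (2.29, 2.08 to 2.5). *Hist1h2ae* was nearly level, at 324 against 289 CPM (0.16, -0.01 to 0.33) and 667 against 541 (0.30, 0.19 to 0.41). Besides *Hist1h2ap*, *Hist1h2ao* lay below 0, at 46.9 against 58.9 CPM (-0.32, -0.79 to 0.11) and 66.0 against 89.4 (-0.43, -0.79 to -0.10). So did the H4 gene *Hist1h4i*, at 27.9 against 33.4 CPM (-0.25, -0.85 to 0.30) and 51.9 against 71.4 (-0.46, -0.86 to -0.08). *Hist1h2ad*, with 3 and 17 UMIs in shallow control and CD8-IFNγRKO cells, had ratios of -0.33 (-1.7 to 1.0) and 1.08 (0.35 to 1.73). *Hist4h4* and *Hist2h4*, which differed little or lay lower in tumor against LN, were among the highest here, *Hist4h4* at 42.5 against 9.18 CPM (2.09, 1.60 to 2.56) and 67.9 against 8.86 (2.81, 2.45 to 3.15).

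**Figure D3:**
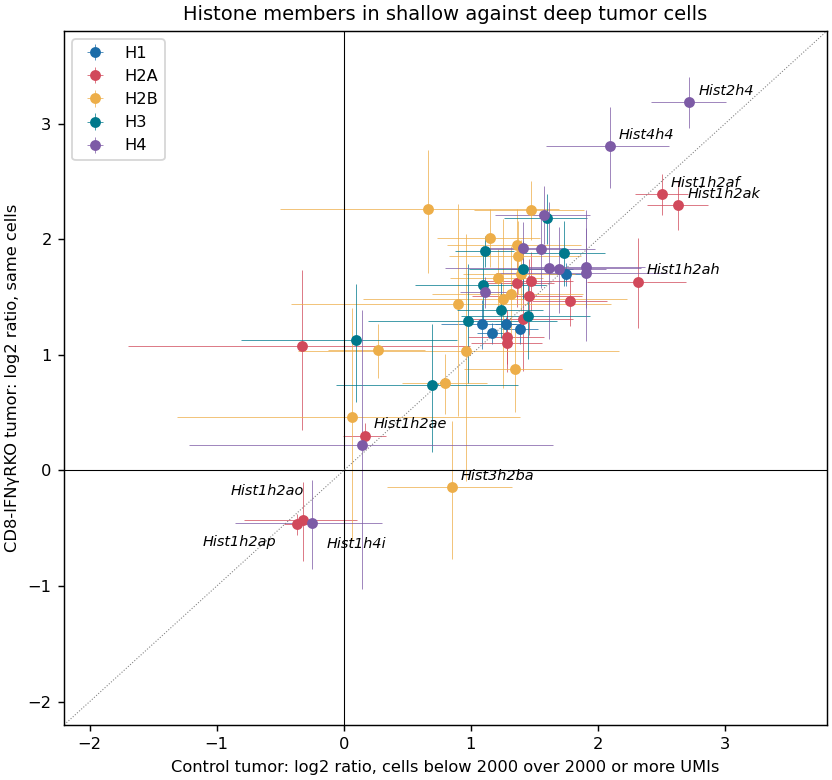
The log2 ratio of shallow (below 2000 UMIs) over deep tumor cells for the 57 members with at least 100 UMIs over both sides in each tumor, control on the horizontal and CD8-IFNγRKO on the vertical axis, with exact 95% intervals (counting error only) and the line of equal ratios dotted. Most members lie near 1 to 2 in both tumors, *Hist2h4* is highest, and *Hist1h2ap*, *Hist1h2ao* and *Hist1h4i* lie below 0 in both.

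The 2000 limit cuts through a gradient, and the histone share was not lowest in the deepest cells. In 8 bins of UMIs per cell, also added after the data had been seen, the members summed to 8089 CPM below 1000 UMIs and 8249 from 1000 to 1500 in the control tumor, to 1684 from 3000 to 4000 and 1713 from 4000 to 8000, and to 4466 from 8000 to 16000 and 5546 (5514 to 5579) at 16000 or more. In the CD8-IFNγRKO tumor the same bins held 10451, 12006, 2957, 3071, 5255 and 5992 CPM (5969 to 6015). Both tumors thus had high levels at both ends. *Hist2h4* was high only at the low end of these bins, with 134 CPM below 1000 and 18.3 at 16000 UMIs or more in control cells, and 192 CPM from 1500 to 2000 and 16.7 at 16000 or more in CD8-IFNγRKO cells. *Hist1h2ap* was highest at the other end, with 924 CPM below 1000, 266 from 3000 to 4000 and 1824 at 16000 UMIs or more in control cells. With a limit of 3000 UMIs, 14 members in control and 32 in CD8-IFNγRKO cells were past 2-fold in either direction, against 44 and 50 with 2000. The share of all genes past 2-fold at 3000 was not computed. The H2A ratio turned to -0.35 and -0.032 there.

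LN cells showed a smaller difference at low depth. Below 2000 UMIs the bins held 954 to 1848 CPM in control LN and 920 to 1269 in CD8-IFNγRKO LN, with 9 to 133 cells each, against 745 and 801 CPM from 4000 to 8000 UMIs. The highest of these, control LN cells below 1000 UMIs, rested on 149 histone UMIs (1848 CPM, 1563 to 2170). After thinning to 500 UMIs, 86.8% of shallow control tumor cells (84.3 to 89.1) and 87.0% of shallow CD8-IFNγRKO tumor cells (84.2 to 89.4) held a histone UMI, against 45.6% (44.4 to 46.8) and 63.8% (62.7 to 64.8) of deep cells. The unthinned shares were 94.0% and 93.1% in shallow and 93.4% and 97.8% in deep cells, at medians of 1017 and 1657 UMIs in shallow and 7012.5 and 10117 in deep cells. In LN, 46.6% of the 343 shallow control and 40.0% of the 100 shallow CD8-IFNγRKO cells held one after thinning.

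**Figure D4:**
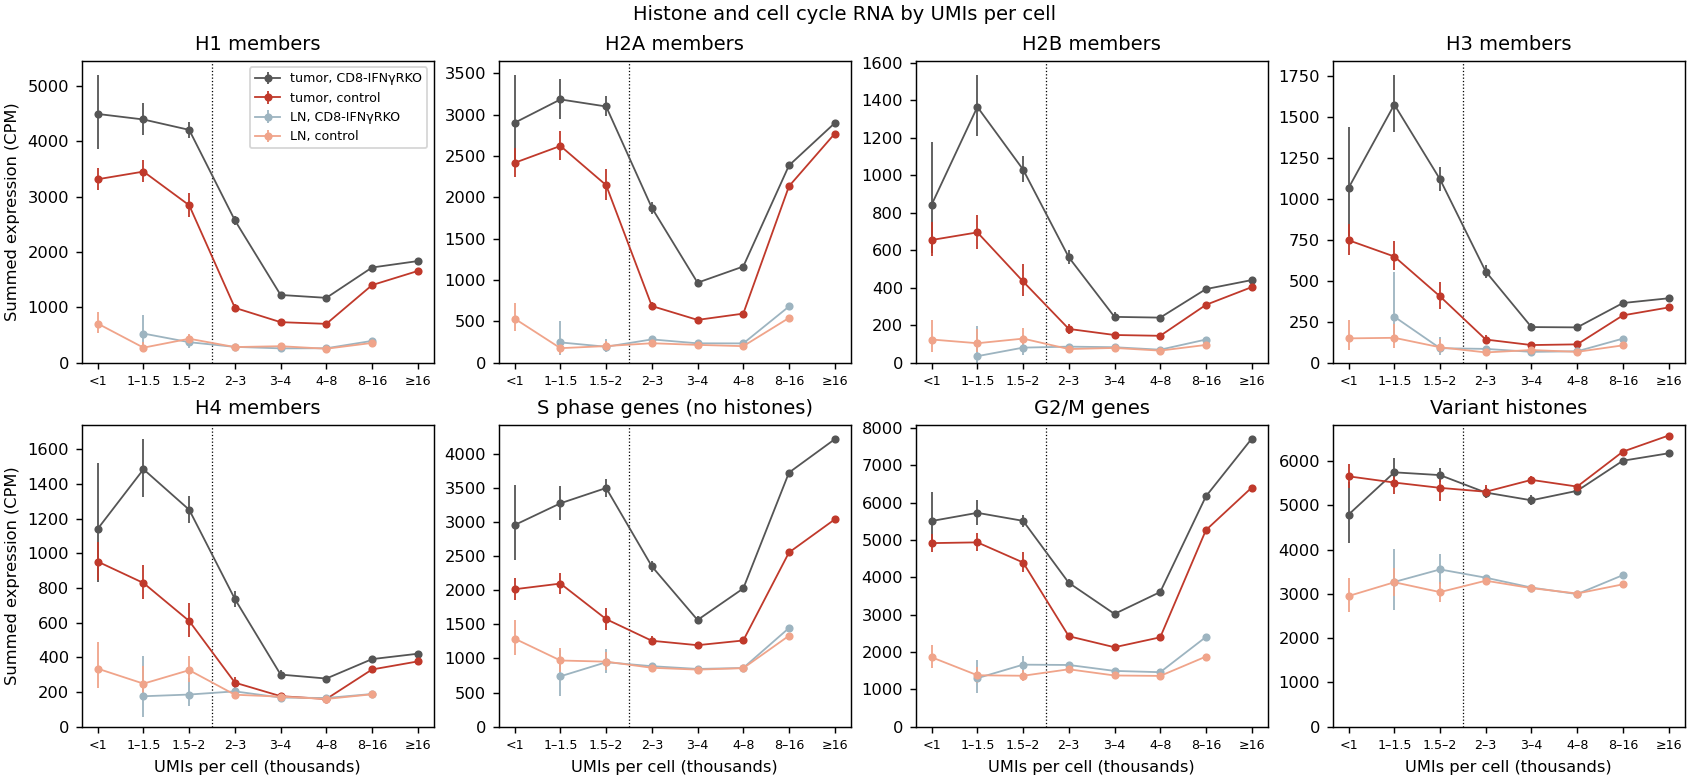
Summed expression (CPM) of each histone class, of S phase and G2/M genes and of variant histones in cells binned by UMIs per cell, in the 4 libraries; lines at the points are exact 95% Poisson intervals, the dotted line marks 2000 UMIs, and bins under 20 cells are not drawn. Summed over classes, histone RNA of the control tumor goes from 8249 CPM (1000 to 1500 UMIs) to 1684 (3000 to 4000) and 5546 (16000 or more), variant histones lie between 5306 and 6575 CPM there, and LN libraries stay below the tumors at low depth.

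Other measures of the shallow cells moved with these levels, and their part in the result was not tested. Ribosomal protein genes took 17.2% of the UMIs of shallow and 20.3% of deep control cells, and 16.7% and 20.1% in CD8-IFNγRKO cells. *Malat1*, a nuclear RNA, was at 4029 against 2160 CPM in control and 2763 against 1337 in CD8-IFNγRKO cells, and *Gm42418*, a gene that overlaps ribosomal RNA sequence, at 18394 against 8696 and 15420 against 7799. Mitochondrial genes were at 7133 against 6724 CPM and 7251 against 7651. CD8 markers summed to 10095 against 8728 CPM in control and 7479 against 6597 in CD8-IFNγRKO cells, with all 7 found. Markers of macrophages or dendritic cells were at 276 against 402 CPM (6 of 9 found in shallow cells) and 266 against 290 (7 of 9). Melanoma genes were at 20.1 against 3.67 CPM in control (4 of 6 found in shallow cells) and 2.83 against 2.72 in CD8-IFNγRKO cells (3 of 6), and red blood cell genes at 27.9 CPM (3 of 4) in shallow control cells and at 0 in shallow CD8-IFNγRKO cells.

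Variant histones and chaperones were lower as sums in shallow cells, and the interval of the ratio of the summed processing genes held 0. Variant histones, 10 of 11 with enough UMIs to be compared, summed to 5530 CPM in shallow and 6097 in deep control cells (log2 ratio -0.14) and to 5660 and 5972 in CD8-IFNγRKO cells (-0.077, -0.11 to -0.041). A single variant gene, *H1fx*, was 2-fold higher, in control cells, at 20.1 against 6.19 CPM. Of all genes tested, 3.67% were 2-fold higher and 2.64% lower in shallow control cells, and 4.52% and 2.28% in shallow CD8-IFNγRKO cells. The counts in these short lists, here and below, were not tested against those shares. *H2afz*, the variant H2A.Z, was at 688 against 935 CPM in control and 948 against 1235 in CD8-IFNγRKO cells. The 13 genes of histone transcription and mRNA end processing summed to 941 against 901 CPM (0.062, -0.038 to 0.16) and 1086 against 1143 (-0.074, -0.16 to 0.0097), 1 being 2-fold higher and 1 lower in control and 0 either way in CD8-IFNγRKO cells. *Slbp*, which encodes the stem-loop binding protein, was at 118 against 147 CPM and 201 against 195. Chaperones summed to 2117 against 2257 and 2817 against 3085 CPM, none of 15 being 2-fold higher or lower in either tumor. The 4 members known for polyadenylated RNA did stand higher as a sum, at 583 against 240 CPM and 628 against 289, of which *Hist1h1c* gave most, with 497 against 189 and 509 against 217.

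Between tumor and LN, variant histones summed to 1.96-fold higher in control and 1.91-fold in CD8-IFNγRKO tumors. Of the 10, 6 were at least 2-fold higher in each, with medians of 1.35 and 1.42, where 13.4% and 14% of all genes tested were. The largest were *Cenpa*, the H3 variant of centromeres, at 291 against 18.2 CPM in control cells, and *H1f0*, the linker histone H1.0, at 93.2 against 4.71. *H3f3a* was lower in tumor, at 577 against 721 CPM in control cells. Against the same background, 1 of 13 processing genes was 2-fold higher in control (7.69%) and 2 in CD8-IFNγRKO tumors (15.4%). Of the chaperones 4 and 6 of 15 were (26.7% and 40.0%), among them *Asf1b*, at 54.2 against 9.99 CPM in control cells, and *Chaf1a*, a subunit of the CAF-1 complex, at 25.3 against 5.21. *Slbp* was at 146 against 66.6 CPM and *Npat* at 22.3 against 12.1 in control cells.

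In levels pooled over cells, shallow cells were not richer in S phase genes as a whole than deep cells. The S list was at 1925 CPM in shallow and 2318 in deep control cells and at 3432 and 3676 in CD8-IFNγRKO cells. Of its 43 genes, 0 were 2-fold higher in either tumor, where 3.67% (control) and 4.52% (CD8-IFNγRKO) of genes tested were. In control cells 4 were 2-fold lower, where 2.64% of genes tested were. The G2/M list was at 4785 against 4763 and 5557 against 6473 CPM, with 0 of 54 genes 2-fold higher, where the same 3.67% and 4.52% were. Deep cells, as the bins show, mix a low and a high end, and S phase genes had 1194 CPM from 3000 to 4000 UMIs and 3036 at 16000 or more in control cells. Each cell was then thinned to 500 UMIs, and shares of cells by G2/M UMIs differed from the pooled levels of that list. Of shallow and deep control cells, 42.2% and 22.4% had 3 or more G2/M UMIs, and of CD8-IFNγRKO cells 46.9% and 39.1%. Those with 0 were 14.7% and 34.9% in control and 14.2% and 21.9% in CD8-IFNγRKO cells. The thinned cells were also sorted by their UMIs on the S list, with numbers of cells given below.

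In deep tumor cells histone RNA went up with the S list. Cells with 0, 1, 2 and 3 or more S phase UMIs held 1382, 2762, 5492 and 9066 CPM of histone RNA in the control tumor and 2474, 4313, 5896 and 7837 in the CD8-IFNγRKO tumor. Shallow cells started higher: 6438, 7942, 9427 and 10677 CPM in control, with 306, 277, 157 and 65 cells, and 6160, 10951, 14575 and 14369 in CD8-IFNγRKO cells, with 163, 183, 153 and 168 cells. With no S phase UMI, shallow cells stood 4.66-fold above deep cells in control (log2 ratio 2.22, 2.11 to 2.33) and 2.49-fold in CD8-IFNγRKO cells (1.32, 1.18 to 1.45). With 3 or more, the gap was 1.18-fold (0.24, 0.072 to 0.40) and 1.83-fold (0.87, 0.79 to 0.96). The control sum joined unlike classes there. H2A was lower in shallow cells (-0.36, -0.64 to -0.080), H1 and H4 were 1.55-fold and 2.39-fold higher, and the intervals of H2B and H3 held 0. The G2/M list gave 3.67-fold and 2.54-fold at 0 UMIs and 1.23-fold and 1.75-fold at 3 or more. In that last bin, too, H2A was lower in shallow control cells (-0.30, -0.43 to -0.17), and the other classes were higher.

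In LN, histone RNA was higher mainly in the few cells with 3 or more S phase UMIs. It was at 840, 866, 988 and 3176 CPM with 0, 1, 2 and 3 or more S phase UMIs in control LN, the last from 102 cells, and at 831, 876, 1258 and 1886 in CD8-IFNγRKO LN, the last from 70 cells. The log2 ratio of the last over the first bin was 1.92 in control and 1.18 in CD8-IFNγRKO LN, and fell to 0.48 and 0.40 with cells thinned to 1600 UMIs in place of 500. At 0 S phase UMIs a tumor cell still held more histone RNA than an LN cell, with 1829 CPM over all control and 2693 over all CD8-IFNγRKO tumor cells. Deep tumor cells alone held 1382 and 2474 CPM there. At 0 G2/M UMIs the gap was smaller: deep tumor cells held 952 (control) and 1641 CPM (CD8-IFNγRKO), against 809 and 837 over all LN cells. With 500 UMIs per cell, a cell with 0 S phase UMIs can be in S phase, so the bins are not phases.

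**Figure D5:**
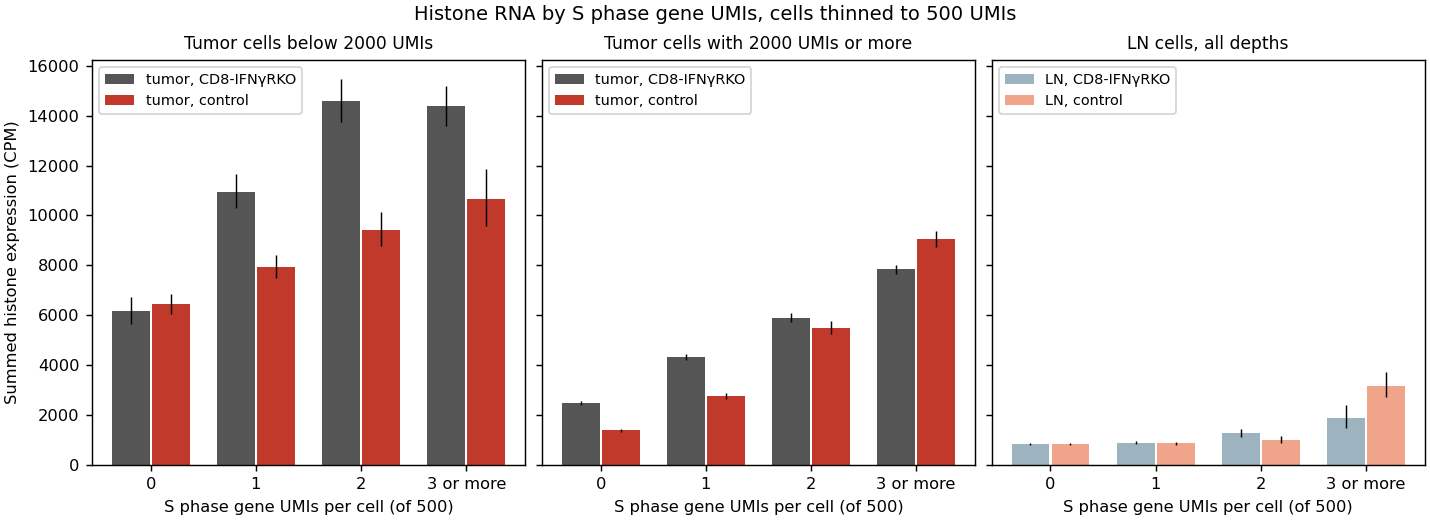
Summed histone expression (CPM; bars from 0, with exact 95% Poisson intervals) of cells thinned to 500 UMIs, by their number of S phase gene UMIs, for shallow tumor cells, deep tumor cells and all LN cells of both genotypes. Bars of deep tumor cells climb from 1382 to 9066 CPM in control, bars of shallow cells start above 6000 CPM, and the highest LN bar, control cells with 3 or more, is at 3176 CPM.

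The difference between genotypes in the tumor also depended on these bins. Over all tumor cells, CD8-IFNγRKO stood above control with 0 S phase UMIs (log2 ratio 0.56, 0.49 to 0.63) and with 1 (0.48, 0.42 to 0.54), less so with 2 (0.13, 0.062 to 0.20), and below it with 3 or more (-0.14, -0.20 to -0.083). By the G2/M list the ratios were 0.71, 0.63, 0.52 and -0.013 (-0.052 to 0.027). The order by the S list differed with depth. Shallow cells held 6160 (CD8-IFNγRKO) and 6438 CPM (control) with 0 S phase UMIs, and 14369 and 10677 with 3 or more. Deep cells held 2474 and 1382 CPM with 0, and 7837 and 9066 with 3 or more. Cells with 3 or more S phase UMIs were 24.7% of CD8-IFNγRKO and 10.5% of control tumor cells, and those with 0 were 31.8% and 48.7%. Between shallow cells of both tumors the summed ratio was 0.51 (0.47 to 0.55) and 12 members were 2-fold higher, where 6.98% of genes tested were, and 1 was lower, where 8.25% were. Between deep cells the ratio was 0.41 (0.40 to 0.41), with 1 member higher, where 0.828% of genes were, and 0 lower, where 1.08% were. As the bins of depth differ between both tumors, with 384 control but 48 CD8-IFNγRKO cells below 1000 UMIs, shallow cells of both are not matched in depth.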

How the data were processed

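Per the file headers and labels, the authors mapped 5′ single-cell reads to mm10 with Cell Ranger 6.0.0; the deposited tables hold raw UMI counts by gene and called cell, not normalized. A barcode was kept if it had 200 to 6000 genes, 3% mitochondrial UMIs or fewer, no gene over 20% of its UMIs, and a UMI (at least 1) for *Cd2*, for *Cd8a* and for *Cd8b1*. No doublet caller was run; an alternative left out the 8% of cells with the most UMIs. Python 3.11.15, numpy 2.4.6, scipy 1.17.1 and pandas 2.3.3 were used. Counts were summed over the cells of a library or depth class and given as CPM, with exact intervals. Of the 14128 genes with 20 UMIs or more, those past 2-fold gave the background. Named genes were the 3 most abundant of each class, the 3 highest and 3 lowest of each comparison with at least 100 UMIs over both sides, and members of the lists; *Hist1h2br*, *Hist1h2ag*, *Hist1h4c*, *Hist2h3c1*, *Hist2h3c2* and the genes of RNA quality lie outside these and were named after their values had been seen. Members, lists, motifs and the promoters shown were chosen with earlier results of these data known. RefSeq gives the symbol *Hist1h2ap* as a synonym of 2 genes, and the one not matched by *Hist1h2ao* was taken. The intervals were tested on simulated data. The 2 TCR libraries were not used here. UMIs mark molecules, but 1 library per group leaves the spread between mice unknown; totals were 28841136 to 93995655 UMIs per library.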

Additional observations from a re-analysis of the deposited data

Results flagged for a closer look

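For 9 results the ratio of CD8-IFNγRKO over control was above 0 in the tumor and below 0 in LN, with both intervals excluding 0. The search took in the sum, the 5 classes and the named genes, some of them named for their ratios in these same comparisons. Of all 64 members 59 were above 0 in tumor, as were 7455 of the 14128 genes tested, and 43 below 0 in LN, as were 5967. The share of all genes with such a pair was not computed. The difference between tissues was not tested, since each tissue and genotype had 1 library, and the intervals cover counting error only. The sum of all members had a log2 ratio of 0.40 in tumor and -0.042 in LN, and the H1 class 0.41 and -0.084. Among single H1 genes, *Hist1h1b* was at 0.53 and -0.75, *Hist1h1a* at 0.68 and -0.57 and *Hist1h1d* at 0.52 and -0.28. Of the core histones, *Hist1h2ae* was at 0.90 and -0.26, *Hist1h2bj* at 0.39 and -0.31, *Hist2h2bb* at 0.54 and -0.35 and *Hist1h3e* at 0.56 and -0.15. In LN the sum, *Hist1h2ae* and *Hist1h2bj* turned above 0 without the 8% of cells with the most UMIs.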

How the results depend on the processing

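No paired analysis was possible because each group had 1 library. A ratio was counted as moved where its shift exceeded the wider side of its counting interval. For thinned cells the interval itself was the limit, and for medians over members that of the summed ratio. Of the values recomputed under alternatives, 1521 single values stayed within this limit, 452 moved past it and 8, with an interval that excluded 0, changed sign. Among the first 2 sets, 19 values whose interval held 0 changed sign too, with those of *Hist1h2ao*, *Hist1h4i*, *Hist1h2ad*, *Hist1h2ae* and *Hist1h2bj* between shallow and deep control cells among them. Summed log2 ratios ranged from 1.80 to 2.18 (control) and 2.27 to 2.67 (CD8-IFNγRKO) for tumor over LN, 0.39 to 0.56 for receptor loss in tumor, -0.064 to 0.043 in LN, and 0.25 to 1.38 (control) and 0.64 to 1.34 (CD8-IFNγRKO) for shallow over deep cells; the cause of these shifts was not tested. Members past 2-fold ranged from 26 to 42 and from 33 to 47 for tumor over LN. The share of all genes past 2-fold was not computed under the alternatives. For receptor loss in tumor they numbered 3 without the 8% of cells with the most UMIs, 0 with 10 CPM added and 2 as a mean over cells, against 1. In LN they numbered 1 with a total without mitochondrial, ribosomal protein, TCR segment and heat shock genes and 3 with 0.1 CPM added, against 0. With a limit of 3000 UMIs the shallow cells had 14 (control) and 32 (CD8-IFNγRKO), against 44 and 50 in either direction, H2A turned to -0.35 and -0.032 and *Hist1h2ae* to -0.16 in CD8-IFNγRKO cells; as a mean over cells *Hist1h2ap* turned to 0.20 in control cells. In LN, without the 8% of cells with the most UMIs, the sum turned to 0.043, *Hist1h2ae* to 0.14 and *Hist1h2bj* to 0.062, and *Hist1h2ae* to 0.052 as a mean over cells. Thinning to 1000 and 1600 UMIs raised the share of cells with a histone UMI to 78.7% and 86.4% (CD8-IFNγRKO tumor), 63.7% and 72.8% (control tumor), 51.6% and 65.8% (CD8-IFNγRKO LN) and 50.5% and 64.4% (control LN), as more UMIs per cell were read. The log2 ratio of cells with 3 or more over 0 S phase UMIs was then 2.07 and 2.32, 2.6 and 2.63, 0.66 and 0.40, and 1.2 and 0.48, in the same order, against 1.63, 2.33, 1.18 and 1.92 at 500. Depth limits the shallow classes most, with 894956 UMIs in control and 1060731 in CD8-IFNγRKO cells.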
